A study of Mus musculus with 165 samples.

Results

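The set comprised 9 genes whose products sit on lipid droplets or split the fat stored in them: the perilipins Plin2, Plin3 and Plin5, the CIDE proteins Cidea, Cideb and Cidec, the lipase inhibitor G0s2, and the patatin-domain lipases Pnpla2 and Pnpla3. Members were chosen by symbol, as the rows of the liver and brain count tables whose Ensembl identifier carries 1 of these 9 names, and 9 of the 55471 identifiers matched. The libraries came from male C57BL/6J/Ukj mice, an inbred laboratory strain, kept only for ageing and given no treatment in the labels, at 3, 9, 15, 24 and 28 months. There were 16, 16, 16, 17 and 18 livers and 15, 16, 16, 17 and 18 brains at these ages, from 83 mice, and each mouse is a replicate of its age. The labels divide the libraries into 3 preparation batches, called preps here, each with all 5 ages. Each age was sampled in different animals, and neither the feeding state nor the hour of tissue collection is given in the sources used here.

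A lipid droplet is a core of triglyceride and sterol ester under a single layer of phospholipid, and the proteins on that layer decide how fast the core is built, merged and emptied. Perilipins shield the core from lipases, CIDE proteins transfer lipid between touching droplets so that they grow, and Pnpla2 (adipose triglyceride lipase) performs the initial cleavage of triglyceride. G0s2 binds Pnpla2 and inhibits it, whereas Abhd5 activates it. In the liver Plin2 is the main droplet coat and follows the amount of stored fat, while Cidea and Cidec are low in lean liver and are known to rise in fatty liver. Pnpla3, a relative of Pnpla2 that can hold Abhd5 away from it, is induced by carbohydrate feeding.

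Liver libraries held 5.82 to 57.5 M counts (median 32.9 M) and brain libraries 11.5 to 73.4 M (median 37.6 M). The tissue labels were checked with Alb, the serum albumin gene of hepatocytes, and Snap25, a synaptic gene of neurons: the lowest liver had 14018 CPM of Alb (CPM, counts scaled to a common TMM-adjusted library size) and the highest brain 18.5 CPM, whereas for Snap25 the lowest brain had 966 CPM and the highest liver 40.4 CPM. In bulk tissue, fewer cells of a type and less RNA per cell cannot be told apart. In the liver, where 31.9% of all tested genes were higher and 30.0% lower at 28 than at 3 months, 8 of the 9 macrophage markers and 7 of the 8 lymphocyte markers were higher, and their summed median level went from 435 to 1068 CPM (range 355 to 1168 and 567 to 4170.5) and from 9.31 to 41.5 CPM (range 6.57 to 37.4 and 18.2 to 286), respectively. Of 7 hepatocyte markers 0 were higher and 2 lower, with summed medians of 91740.1 and 99419 CPM (range 61378.1 to 105250 and 21413.1 to 117932). Of 7 stellate cell markers 5 were higher and 0 lower, with summed medians of 321 and 466 CPM (range 270 to 369 and 402 to 548), and of 5 endothelial markers 3 were higher and 1 lower, with 141 and 276 CPM (range 111 to 169 and 135 to 387.5). The part of these cell types in the results below was not tested.

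Upstream sequence is shown for Plin2, Cidec and G0s2, the members whose levels went together pairwise between livers of one age. The runs are bases just before the RefSeq start site on the strand of the gene, 5′ to 3′, from RefSeq on GRCm38.p6, without bases that the GENCODE annotation places inside the gene. They are in lower case, with the motif match in capitals. Plin2 lies on chromosome 4 at 86648386 to 86670060 on the minus strand, and its 249 upstream bases are chr4:86670061-86670309. Cidec lies on chromosome 6 at 113424634 to 113435760 on the minus strand, with 250 upstream bases at chr6:113435761-113436010. G0s2 lies on chromosome 1 at 193272161 to 193273217 on the minus strand, with 221 upstream bases at chr1:193273218-193273438.
Plin2: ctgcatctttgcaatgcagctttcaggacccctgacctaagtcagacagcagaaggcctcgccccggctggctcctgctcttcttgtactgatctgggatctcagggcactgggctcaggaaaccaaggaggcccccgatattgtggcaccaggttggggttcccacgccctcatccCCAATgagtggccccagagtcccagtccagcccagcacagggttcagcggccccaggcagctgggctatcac
Cidec: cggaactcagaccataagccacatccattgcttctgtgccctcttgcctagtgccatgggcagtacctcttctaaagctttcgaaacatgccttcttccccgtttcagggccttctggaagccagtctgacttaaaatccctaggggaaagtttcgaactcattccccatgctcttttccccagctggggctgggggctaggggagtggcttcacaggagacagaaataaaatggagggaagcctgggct
G0s2: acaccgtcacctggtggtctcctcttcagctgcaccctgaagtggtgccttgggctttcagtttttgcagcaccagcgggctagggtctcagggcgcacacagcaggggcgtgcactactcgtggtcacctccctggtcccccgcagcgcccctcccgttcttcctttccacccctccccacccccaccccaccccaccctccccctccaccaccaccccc
The motifs named here were looked for on both strands in the upstream bases: the E-box CACGTG, the D-box TTANGTAA, the TATA box TATAAA, the CCAAT box CCAAT, the nuclear receptor direct repeat (AGGNCA, any 1 base, AGGNCA) and the glucocorticoid receptor palindrome (GNACA, any 3 bases, TGTNC). Of these, Plin2 held a CCAAT box 73 to 69 bases before its RefSeq start, and Cidec and G0s2 held none of them in these windows. Over 32851 mouse promoters of up to 250 upstream bases, 33.8% held CCAAT, 12.4% the TATA box, 6.02% the E-box, 2.06% the D-box, 0.338% the direct repeat and 0.387% the palindrome. No direct match to the clock motifs (E-box and D-box) was found in any of the 3 sequences, which says only that these letters are absent from these windows.

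In the GENCODE vM21 annotation of GRCm38 the other members lie on chromosome 17 (Plin3 at 56277476 to 56292873 and Plin5 at 56111601 to 56117596, both on the minus strand), chromosome 18 (Cidea, 67343604 to 67367785, plus strand), chromosome 14 (Cideb, 55754050 to 55758458, minus strand), chromosome 7 (Pnpla2, 141455198 to 141460743, plus strand) and chromosome 15 (Pnpla3, 84167837 to 84187236, plus strand). Of the 1548 exon bases of Pnpla3, 105 overlap exons of Gm49513 on the same strand, and the handling of shared reads is not given. Of the 1488 exon bases of Cideb, 1136 overlap exons of Nop9 on the opposite strand. The strand setting of the counting is not given in the sources used here, so the counts of Cideb are uncertain. Nop9, a nucleolar RNA-binding protein gene, had a median of 20.5 CPM in the 3-month livers against 234 CPM for Cideb. In the 3-month brains the order was the other way, with 10.7 CPM for Nop9 against 2.60 CPM for Cideb.

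All 9 members passed the filter on low counts in the liver, and 6 of them were called at 28 against 3 months, 5 lower and 1 higher, by the quasi-likelihood test of edgeR with Benjamini-Hochberg adjustment over 15579 genes, where a call is an adjusted p under 0.05. That share is to be read against the tissue, in which 61.9% of all tested genes were called in the same comparison (31.9% higher and 30.0% lower). The 5 lower members were Plin2, Plin5, Cideb, Cidec and G0s2, and Cidea was the higher one, a value that was not called without 1 library. The median log2 fold change of the 9 was -0.39, against 0.01 over all tested genes. In a joint test of the 4 age terms all 9 members were called, among 71.5% of all genes, and Plin2 had the lowest p of the set, ranking 78 of 15579.

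**Figure D1:**
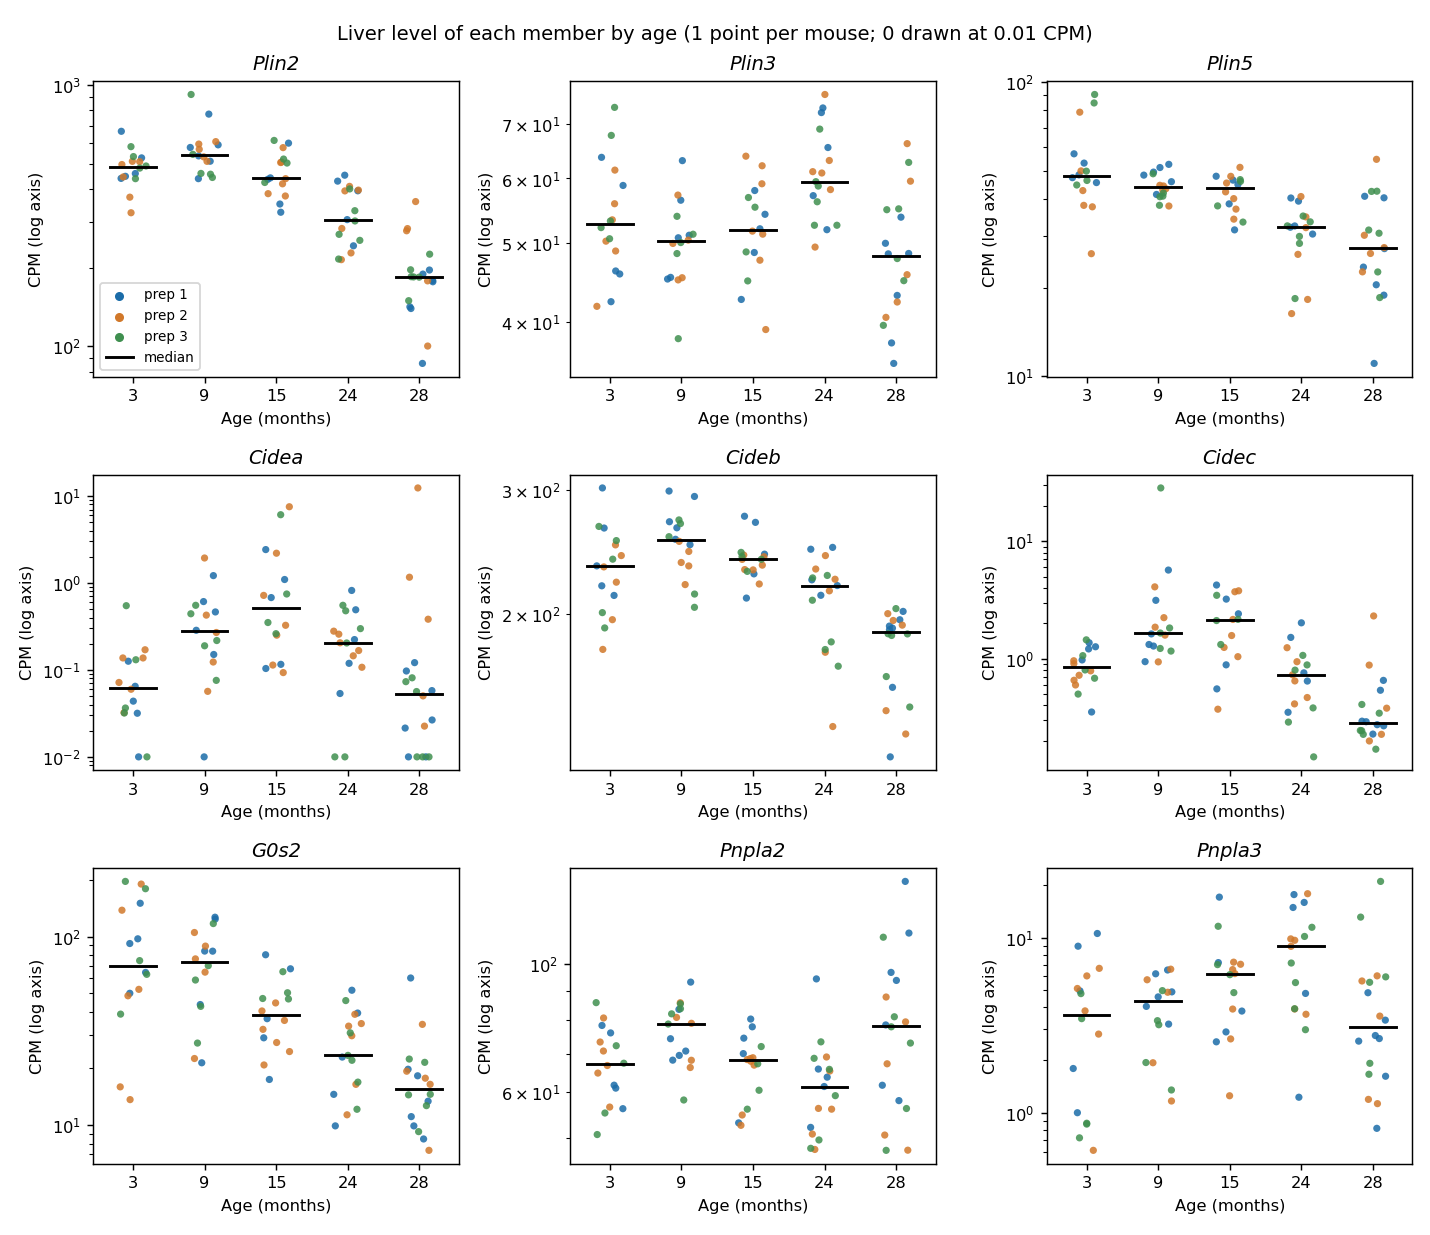
CPM (log axis) of each member in 83 livers by age in months; each point is 1 mouse, coloured by prep, each black line is the median, and libraries at 0 are drawn at 0.01 CPM. Between 3 and 28 months median Plin2 goes from 486 to 184 CPM and median G0s2 from 69.5 to 15.5 CPM, while Cidea and Cidec have their highest medians at 15 months.

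Plin2, the main droplet coat of hepatocytes, was lower in every 24- and 28-month liver than the 3-month median. Its level ran from 325 to 665 CPM with a median of 486 CPM at 3 months, from 438 to 920.2 CPM (median 539) at 9 months and from 326 to 614 CPM (median 439.9) at 15 months. Later it ran from 215 to 452 CPM (median 306) at 24 months and, at 28 months, from 86.1 to 358 CPM (median 184). The 28-month livers were therefore low as a group, although the ranges at 3 and 28 months overlapped. Relative to 3 months the log2 fold change was -0.57 ± 0.12 (SE) at 24 months (adjusted p = 6.3e-05) and -1.34 ± 0.12 at 28 months (adjusted p = 1.1e-15; edgeR). It fell by 0.51 from 15 to 24 months (adjusted p = 0.00063) and by 0.77 from 24 to 28 months (adjusted p = 3.0e-06), and the fall from 3 to 28 months was called within each prep alone (-1.70, -0.88 and -1.43).

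Plin3, a perilipin that moves between the cytosol and young droplets, behaved differently from Plin2. It ran from 41.8 to 73.3 CPM (median 52.7) at 3 months, from 49.4 to 76.1 CPM (median 59.5) at 24 months and from 35.6 to 66.2 CPM (median 48.2) at 28 months. Medians were 50.2 CPM at 9 months and 51.9 CPM at 15 months, so the livers were highest at 24 months, with overlapping ranges. The rise from 15 to 24 months was 0.22 ± 0.07 (adjusted p = 0.013) and the fall from 24 to 28 months -0.32 ± 0.07 (adjusted p = 0.00069; edgeR). Against 3 months the value at 24 months was 0.17 ± 0.07 (adjusted p = 0.043), a call lost when any 1 of 16 libraries was left out (adjusted p from 0.052 to 0.085 in those fits), and -0.15 ± 0.07 at 28 months was not called (adjusted p = 0.066).

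Plin5, a perilipin of tissues that burn fat, which tethers droplets to mitochondria, reached its low level by 24 months. It ran from 26.1 to 90.7 CPM (median 47.8) at 3 months, from 37.9 to 52.5 CPM (median 43.8) at 9 months and from 31.4 to 51.3 CPM (median 43.6) at 15 months. By 24 months it ran from 16.3 to 40.8 CPM (median 32.1) and at 28 months from 11.1 to 54.6 CPM (median 27.2). All 17 livers of 24 months and 17 of 18 of 28 months lay below the 3-month median. The log2 fold change from 3 months was -0.78 ± 0.13 at 24 months (adjusted p = 1.4e-06) and -0.83 ± 0.13 at 28 months (adjusted p = 7.8e-08; edgeR), while 28 against 24 months gave -0.05 ± 0.13 (adjusted p = 0.82). In prep 2 alone the value at 28 months was -0.49 and was not called (adjusted p = 0.16).

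Cideb, the hepatocyte CIDE protein that helps load triglyceride onto very-low-density lipoprotein, was by exon length the most abundant member in the liver at every age. That rank rests on counts left uncertain by the overlap with Nop9. It ran from 178 to 302 CPM (median 234) at 3 months, from 205 to 299 CPM (median 255) at 9 months and from 211 to 275 CPM (median 239) at 15 months. At 24 months it ran from 139 to 249 CPM (median 219.7) and at 28 months from 126 to 204 CPM (median 189), and all 18 oldest livers lay below the 3-month median. Its log2 fold change was -0.39 ± 0.06 at 28 against 3 months (adjusted p = 9.7e-08; edgeR), with -0.19 ± 0.06 at 24 against 15 months (adjusted p = 0.014) and -0.25 ± 0.06 at 28 against 24 months (adjusted p = 0.0022). In prep 2 alone the value at 28 against 3 months was -0.33 and was not called (adjusted p = 0.064). Nop9, whose exons overlap it, was also lower at 28 than at 3 months, by less (-0.19 ± 0.05, adjusted p = 0.0011).

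Cidec (fat-specific protein 27), which enlarges droplets, was higher at 9 and 15 months and lower at 28 months than at 3 months. It ran from 0.35 to 1.44 CPM (median 0.85) at 3 months, from 0.94 to 28.4 CPM (median 1.63) at 9 months and from 0.37 to 4.23 CPM (median 2.13) at 15 months. In the older livers it ran, at 24 months, from 0.15 to 2.01 CPM (median 0.73) and at 28 months from 0.17 to 2.31 CPM (median 0.28). All 16 livers of 9 months and 14 of 16 of 15 months lay above the 3-month median, and 16 of 18 of 28 months lay below it. The liver at 28.4 CPM, replicate 13 of 9 months with 1050 counts, also had the highest Plin2 of all livers (920.2 CPM), and the next highest Cidec at that age was 5.67 CPM.

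The log2 fold change of Cidec was 2.01 ± 0.38 at 9 against 3 months (adjusted p = 0.0004; edgeR), and 1.14 without that liver (adjusted p = 0.015). Cidec was the only member called at 9 months, 1 of 9 against 4.69% of all genes. At 15 against 3 months it was 1.26 ± 0.38 (adjusted p = 0.027), and the adjusted p was 0.055 without replicate 15 of 15 months and 0.052 without replicate 16 of 3 months. It fell by 1.47 from 15 to 24 months (adjusted p = 0.0014). At 28 against 3 months the value was -0.95 ± 0.38 (adjusted p = 0.026), with -1.53 in prep 1, 0.05 in prep 2 and -1.70 in prep 3, of which prep 1 alone was called.

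Cidea, the CIDE protein best known from brown fat, was near the detection limit in most livers, and a few livers carried much of its signal. It ran from 0 to 0.55 CPM (median 0.06) at 3 months, where 11 of 16 libraries held 3 counts or fewer, from 0 to 1.94 CPM (median 0.28) at 9 months and from 0.09 to 7.53 CPM (median 0.52) at 15 months. At 24 months it ran from 0 to 0.82 CPM (median 0.21) and at 28 months from 0 to 12.4 CPM (median 0.05), where 14 of 18 libraries held 3 counts or fewer. All 16 livers of 15 months lay above the 3-month median. The log2 fold change was 3.77 ± 0.79 at 15 against 3 months (adjusted p = 0.00071; edgeR), and it fell by 2.31 from 15 to 24 months (adjusted p = 0.0059), or by 1.65 without replicate 9 of 15 months, when the call was lost (adjusted p = 0.057).

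At 28 against 3 months the fitted value of Cidea was 2.38 ± 0.80 (adjusted p = 0.0082; edgeR), although the median was not higher and 11 of 18 livers lay below the 3-month median. It rested on replicate 14 of 28 months (12.4 CPM, 500 counts). Without that liver the value was 0.32 (adjusted p = 0.71), and within preps 1 and 3, which do not hold it, it was -0.21 and -1.97. Of 10 adipocyte markers Plin1, Lep, Adipoq, Cfd and Cox8b were at 0 in that liver, Retn, Ucp1, Acvr1c and Trarg1 were between 0.025 and 0.15 CPM, and Fabp4 was at 12.7 CPM. Their sum, 13.0 CPM, was the highest of the 28-month livers, and its part in the result was not tested.

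Adipocytes express Cidec, G0s2 and Pnpla2 strongly, and those of brown fat also Cidea, so adipocyte markers were read beside the members. Plin1, the coat of adipocyte droplets, was at 0 in 69 of 83 livers, Adipoq (adiponectin) in 55, Lep (leptin) in 80, Ucp1, a brown-fat gene, in 67, Retn in 51, Cox8b in 31, Cfd in 25 and Trarg1 in 2, and Acvr1c and Fabp4 were detected in every liver. The summed level of 10 adipocyte markers ran from 4.02 to 18.7 CPM (median 7.16) at 3 months and from 5.82 to 13.0 CPM (median 8.61) at 28 months, with Fabp4 at a median of 6.79 CPM. Only 3 of these markers were abundant enough to be tested, of which 2 were higher at 28 than at 3 months and Fabp4 was not called (0.28 ± 0.14, adjusted p = 0.081; edgeR). Adipoq stood out in replicate 17 of 24 months (1.64 CPM) and replicate 10 of 3 months (1.5 CPM), against 0.12 CPM in the next liver. Replicate 10 of 3 months also had the highest Plin5 (90.7 CPM), Cidea (0.55 CPM) and Cidec (1.44 CPM) of its age. Leaving out either of these livers removed no call on Plin5, Cidea or Cidec, and without the 3-month liver Cidea was called at 24 against 3 months (2.14, adjusted p = 0.040).

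G0s2, the inhibitor of Pnpla2, fell furthest. It ran from 13.7 to 196 CPM (median 69.5) at 3 months, from 21.4 to 127 CPM (median 73.1) at 9 months and from 17.5 to 80.1 CPM (median 38.5) at 15 months. In 24-month livers it ran from 9.92 to 51.9 CPM (median 23.5) and at 28 months from 7.36 to 60.3 CPM (median 15.5). In CPM the 3-month livers were the most spread of all ages, and every liver of 24 and 28 months lay below their median. The log2 fold change from 3 months was -1.14 ± 0.28 at 15 months (adjusted p = 0.0061), -1.77 ± 0.28 at 24 months (adjusted p = 3.7e-07) and -2.33 ± 0.28 at 28 months (adjusted p = 6.6e-11; edgeR). Within preps the value at 28 months was -2.19, -2.0 and -2.81, each called.

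At 15 against 3 months G0s2 was 1 of 3 members called, with Cidea and Cidec, among 7.32% of all genes. At 24 against 3 months 5 were called (Plin2, Plin5 and G0s2 lower, Plin3 and Pnpla3 higher) among 49.0% of all genes (25.0% higher and 24.0% lower). Between neighbouring ages, 6 were called at 24 against 15 months among 36.0% of all genes: Plin3 was higher, as were 21.6% of all genes, and Plin2, Plin5, Cidea, Cideb and Cidec were lower, as were 14.4%. At 28 against 24 months 4 were called among 15.3% of all genes: Pnpla2 was higher, as were 6.18%, and Plin2, Plin3 and Cideb were lower, as were 9.13%. At 15 against 9 months 0 members were called by edgeR, DESeq2 or voom, among 0.0514% of all genes, and 5 had an unadjusted p under 0.05 in edgeR, as did 670 of all 15579 genes.

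**Figure D2:**
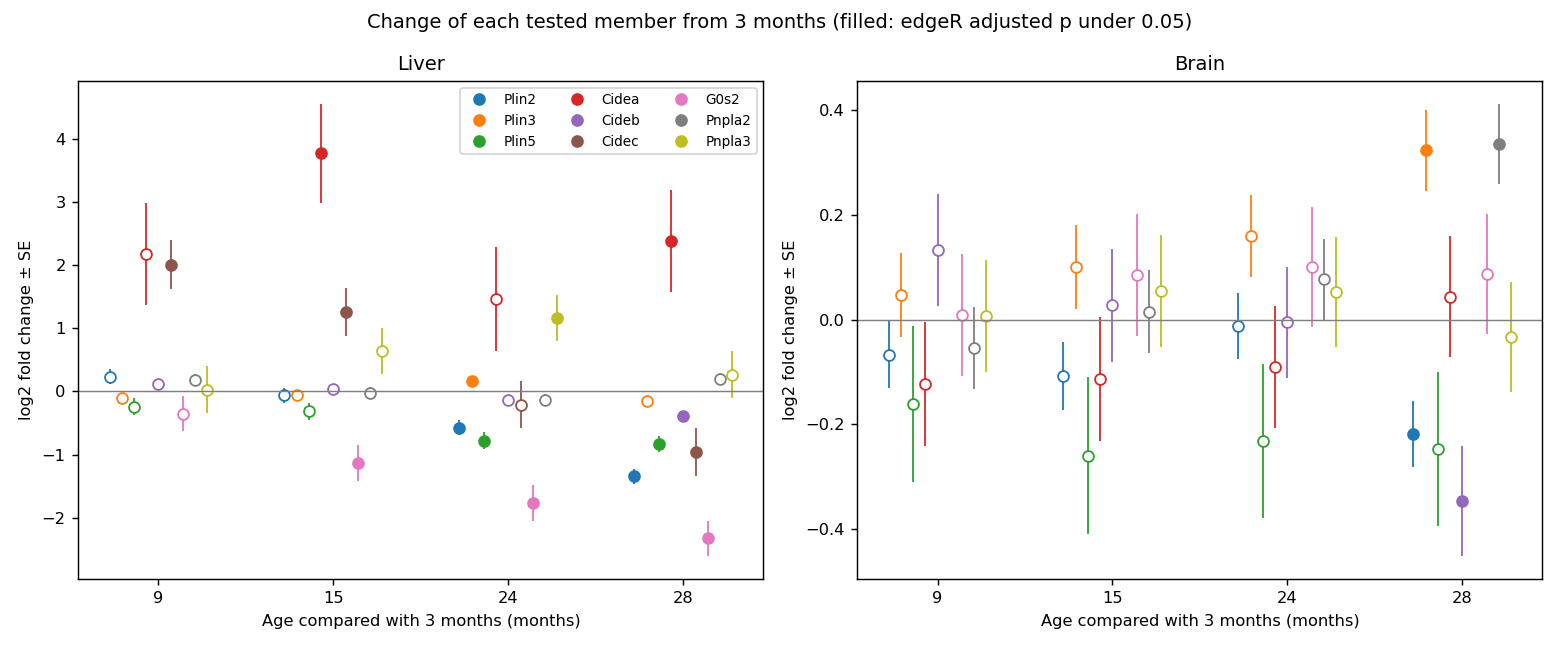
Log2 fold change ± SE of each tested member from 3 months to 9, 15, 24 and 28 months, in the liver (left) and the brain (right, on a smaller scale); filled points passed the edgeR test at an adjusted p under 0.05. In the liver G0s2 goes from -0.35 at 9 months to -2.33 at 28 months, and in the brain the 4 filled points, all at 28 months, lie between -0.35 and 0.34.

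Pnpla2, the lipase that G0s2 inhibits, was called in 1 of the 7 liver comparisons, 28 against 24 months. It ran from 50.7 to 85.8 CPM (median 67.1) at 3 months, from 58.2 to 93.1 CPM (median 78.9) at 9 months and from 52.6 to 80.3 CPM (median 68.1) at 15 months. At 24 months it ran from 47.8 to 94.3 CPM (median 61.4) and at 28 months from 47.6 to 139 CPM (median 78.2), the widest range of any age. The rise from 24 to 28 months was 0.34 ± 0.09 (adjusted p = 0.0071; edgeR). At 28 against 3 months the value was 0.21 ± 0.09 (adjusted p = 0.052), on the edge of the threshold: it was called when any 1 of 17 libraries was left out. The ratio of G0s2 to Pnpla2 CPM in the same liver had a median of 0.90 at 3 months (range 0.24 to 3.87) and 0.20 at 28 months (range 0.08 to 0.72).

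Pnpla3 was higher at 24 months and more variable between livers than Pnpla2. It ran from 0.61 to 10.5 CPM (median 3.64) at 3 months, from 1.17 to 6.60 CPM (median 4.32) at 9 months and from 1.26 to 17.0 CPM (median 6.19) at 15 months. At 24 months it ran from 1.23 to 17.8 CPM (median 8.91) and at 28 months from 0.82 to 20.9 CPM (median 3.07). The log2 fold change from 3 months was 1.16 ± 0.36 at 24 months (adjusted p = 0.0063; edgeR), with 15 of 17 livers above the 3-month median, and 0.27 ± 0.37 at 28 months (adjusted p = 0.55). The preps differed: at 28 against 3 months the value was -1.04 in prep 1 and -0.24 in prep 2, neither called, and 1.92 in prep 3 (adjusted p = 0.013). The 5 livers of 3 months in prep 3 had a median of 0.88 CPM, against 4.96 and 4.47 CPM in preps 1 and 2.

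**Figure D3:**
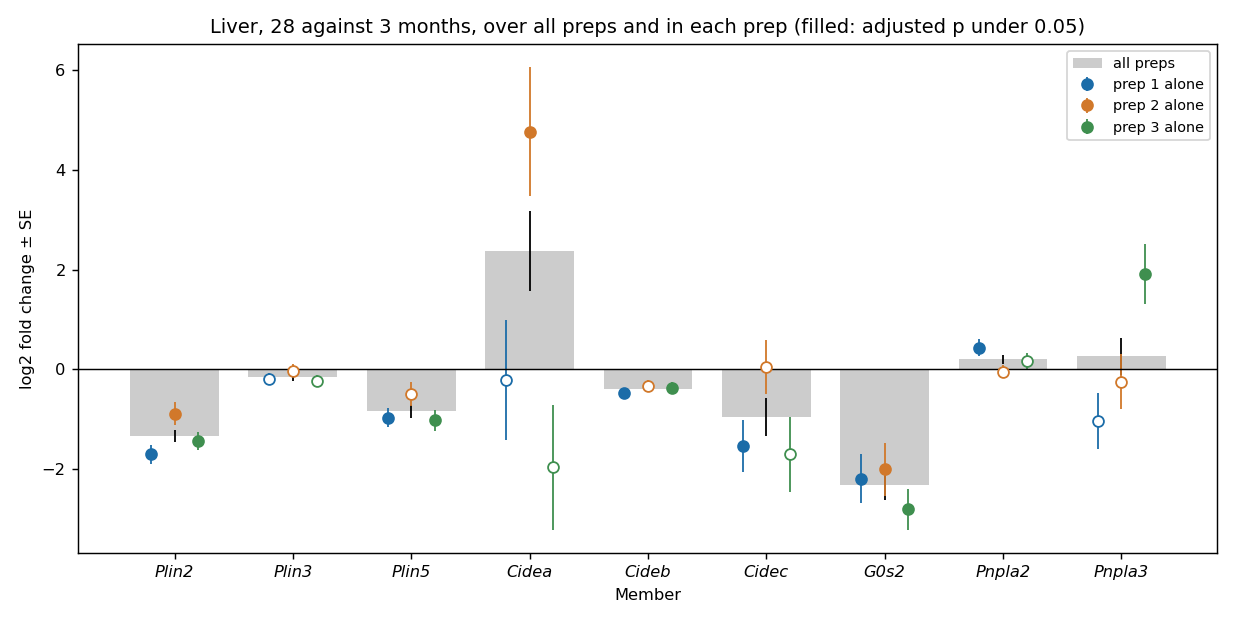
Log2 fold change ± SE at 28 against 3 months in the liver for each member, over all preps (grey bars) and in each prep alone (points; filled at an adjusted p under 0.05). Plin2 and G0s2 are called in every prep, while Cidea, Cidec, Pnpla2 and Pnpla3 take both signs.

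Clock genes, whose transcripts cycle over the day, were read beside the members. Of 13 tested clock genes 6 were higher and 4 lower at 28 against 3 months, when 31.9% of all genes were higher and 30.0% lower, led by Ciart (4.03 ± 0.57, adjusted p = 6.8e-09) and Per3 (3.57 ± 0.42, adjusted p = 2.5e-11), with Npas2 at -1.36 ± 0.35 and Arntl at -0.94 ± 0.23 (edgeR). A clock score per library (mean z-score, with genes of the opposite phase reversed) had liver medians of -0.56, -0.33, -0.30, -0.35 and 0.83 from 3 to 28 months. With the score as a covariate, Plin2 (-1.16), Plin5 (-0.90), Cideb (-0.37), G0s2 (-2.15) and Cidea (2.43, adjusted p = 0.024) were called at 28 against 3 months, and Cidec was not (-0.79, adjusted p = 0.13). Pnpla2 took the opposite sign (-0.17, adjusted p = 0.11), and its rise from 24 to 28 months went to -0.0045 (adjusted p = 0.99). Plin3 (adjusted p = 0.094) and Cideb (adjusted p = 0.079) also lost their calls at 28 against 24 months, which left Plin2 alone. The score was itself highest at 28 months, so as a covariate it also takes up part of the age difference. Clock and age cannot be told apart here, and the part of the clock in these changes was not tested.

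Feeding and fasting genes were read in the same way. Of 14 tested, 2 were higher and 9 lower at 28 against 3 months, with a median of -0.83, against 31.9% higher and 30.0% lower among all genes. Fgf21, a hormone of the fasted liver, was at -1.93 ± 0.44 (adjusted p = 0.00011), while Pck1, of gluconeogenesis, was at 0.90 ± 0.31 (adjusted p = 0.010) and Igfbp1 at 0.35 ± 0.44 (adjusted p = 0.5; edgeR). Their part in the changes of the members was not tested.

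Compared per kilobase of exon at 3 months, the median liver levels were 157 CPM per kb for Cideb, 138 for Plin2, 79.8 for G0s2, 22.9 for Plin5, 22.2 for Pnpla2, 13.9 for Plin3, 2.35 for Pnpla3, 0.46 for Cidec and 0.06 for Cidea. At 28 months Cideb (127) and Plin2 (52.5) were followed by Pnpla2 (25.9), G0s2 (17.8), Plin5 (13.1) and Plin3 (12.7). Pnpla2 thus stood in the fifth place at 3 months and in the third place at 28 months. The place of Cideb rests on counts left uncertain by its overlap with Nop9.

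Some members went together from liver to liver. The share of pairs of other genes that would pass in the same way was not computed. The count of pairs below therefore cannot be read as particular to the members. With the age and prep means taken out of log2 CPM, 9 of 36 pairs over 83 livers had adjusted permutation p under 0.05 for both Pearson's r and Spearman's rho, 7 positive and 2 negative, and the sign was the same in each prep for all 9. Within single ages the sign was the same for 6 of them, while Plin2 with Cideb had r = -0.13 at 9 months, Plin3 with Pnpla3 r = -0.44 at 3 months and Pnpla2 with Pnpla3 r = 0.08 at 3 months. Plin2 went with Cideb (r = 0.52, rho = 0.50), Cidec (r = 0.48, rho = 0.45) and G0s2 (r = 0.40, rho = 0.38). G0s2 also went with Plin5 (r = 0.48, rho = 0.51) and Cidec (r = 0.30, rho = 0.36), and Cidea with Cidec (r = 0.45, rho = 0.47). Adjusted permutation p for r ran from 0.00036 to 0.017 over the 9 pairs, with raw p from 1e-05, the smallest that the permutations can give, to 0.0043. For the pairs of Plin2, r without the 2 livers farthest from the median was 0.50, 0.54 and 0.41.

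The lipases stood apart from this group. Pnpla2 went against Pnpla3 (r = -0.43, rho = -0.40) and against Plin3 (r = -0.43, rho = -0.37), and Plin3 went with Pnpla3 (r = 0.31, rho = 0.31). Without the 2 farthest livers r was -0.40, -0.38 and 0.39 for these pairs. Pnpla2 and its inhibitor G0s2 had r = 0.05.

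**Figure D4:**
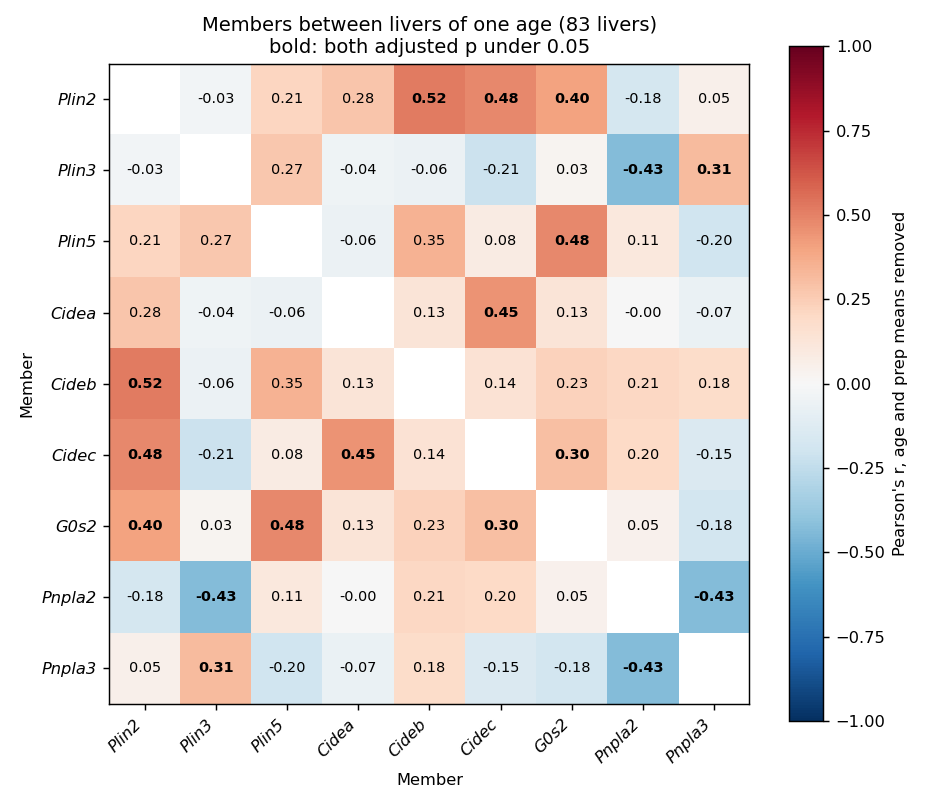
Pearson's r of log2 CPM between members over 83 livers with age and prep means removed (colour and printed value); bold values have adjusted permutation p under 0.05 for both r and rho. The 7 bold positive pairs are those of Plin2 with Cideb, Cidec and G0s2, of G0s2 with Plin5 and Cidec, of Cidea with Cidec and of Plin3 with Pnpla3, and the bold negative pairs are those of Pnpla2 with Plin3 and Pnpla3.

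Among 12878 genes with at least 1 CPM, those most like each member other than Cidea, which was under 1 CPM on average, are given over the 83 livers by r as a description, all from the same libraries. Pnpla5, the neighbouring relative of Pnpla3, was most like Pnpla3 (r = 0.88), followed by Acly (r = 0.79), which makes acetyl-CoA for fat synthesis. Angptl8, a feeding-induced regulator of lipoprotein lipase, was most like G0s2 (r = 0.72), and Fitm2, which helps droplets bud from the endoplasmic reticulum, was most like Cidec (r = 0.55). The nearest to Plin2 was Scp2 (r = 0.75), a lipid carrier of peroxisomes, and to Pnpla2 March5 (r = 0.76) and Map1lc3b (r = 0.76), a mitochondrial ubiquitin ligase and an autophagosome protein. For Cideb it was Pcbd1 (r = 0.92), for Plin5 Kcnn1 (r = 0.77) and for Plin3 Ggt6 (r = 0.70).

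The pathway around the members was read from fixed lists, in the liver at 28 against 3 months, where 31.9% of all tested genes were higher and 30.0% lower. Of 16 other droplet proteins 3 were higher and 7 lower (median -0.20), from Fitm2 (-0.92 ± 0.08) and Hsd17b11 (-0.63 ± 0.09), a droplet-bound steroid dehydrogenase, to Acsl3 (0.39 ± 0.11), which activates fatty acids on growing droplets, and Lpcat1 (0.61 ± 0.12), which makes phosphatidylcholine. Of 18 other lipases and cofactors 2 were higher and 14 lower (median -0.66). The hepatic carboxylesterases Ces3a (-2.03 ± 0.23) and Ces3b (-1.87 ± 0.19) were the lowest, and Abhd12 (0.34 ± 0.06) and Lpl (1.15 ± 0.23), lipoprotein lipase, the highest. Carboxylesterases are near-identical neighbours, so their counts are uncertain.

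Of 14 triglyceride synthesis genes 1 was higher and 6 lower (median -0.17), with the acyltransferases Agpat2 at -0.87 ± 0.10, Gpam at -0.50 ± 0.14 and Gpat3 at 0.63 ± 0.24. Of 6 genes of lipoprotein secretion 1 was higher and 4 lower, with Mttp, which loads lipid onto apolipoprotein B, at -0.58 ± 0.07, Sar1b at -0.46 ± 0.07 and Tm6sf2 at 0.63 ± 0.10. Of 14 transcription factors of lipid metabolism 2 were higher and 5 lower, a smaller share called than the 61.9% of all genes, as for the 7 of 14 in triglyceride synthesis. They ran from Ppard (-1.09 ± 0.26) and Creb3l3 (-0.94 ± 0.09) to Cebpb (0.56 ± 0.21) and Ppargc1a (1.07 ± 0.18). All genes named here passed the edgeR test. Over all 15579 genes the median was 0.01, and the lists were not tested as sets.

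**Figure D5:**
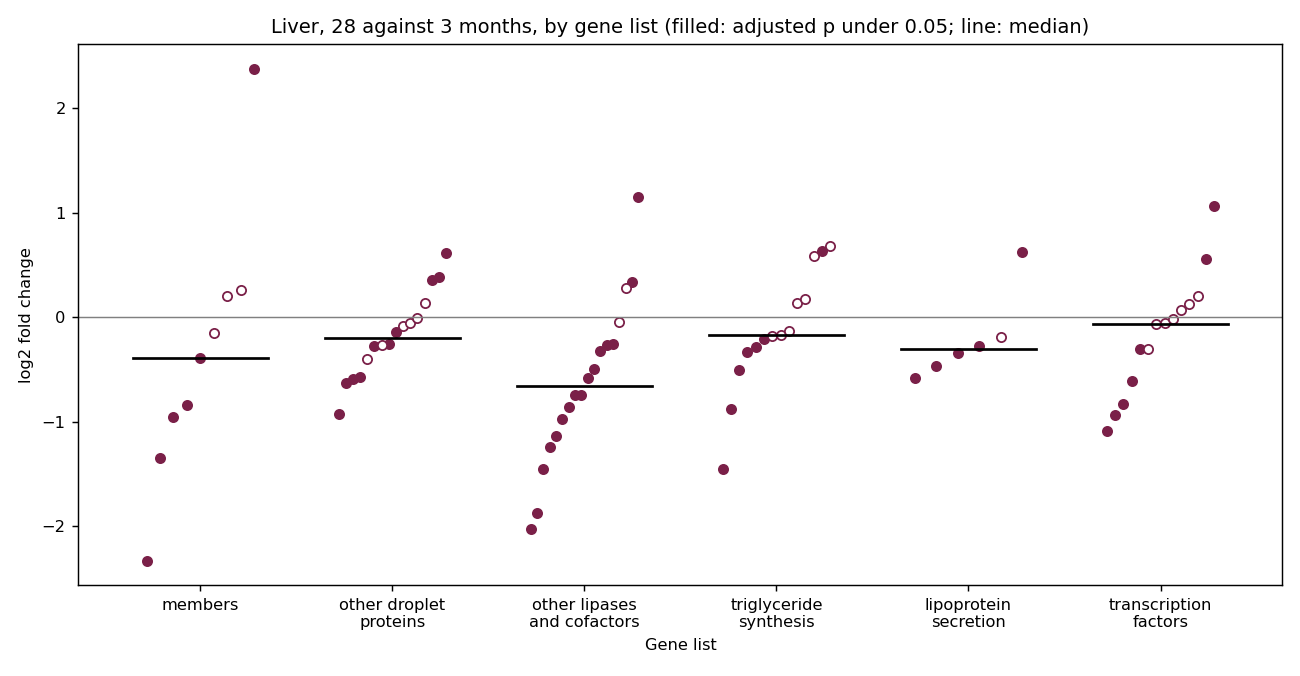
Log2 fold change at 28 against 3 months in the liver for the 9 members and 5 lists of pathway genes; each point is 1 gene, filled at an adjusted p under 0.05, and each line is the median of the list. The medians lie between -0.66 (other lipases and cofactors) and -0.06 (transcription factors), and the member at the top is Cidea.

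In the brain the members were expressed at other levels than in the liver. Plin2 had a 3-month median of 5.37 CPM against 486 CPM in the liver, and Cidea 5.74 CPM against 0.06 CPM. Cidec held at most 4 counts in any brain library and was not tested. Per kilobase of exon, the 3-month medians were 5.97 CPM per kb for Pnpla2, 5.15 for Cidea, 4.54 for G0s2, 4.37 for Plin3, 3.40 for Pnpla3, 1.75 for Cideb, 1.53 for Plin2 and 0.35 for Plin5, so the lipase led and Cideb and Plin2, the top members in the liver, came near the end.

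At 28 against 3 months 4 of 8 tested members were called in the brain, among 28.3% of 18711 genes, 2 higher and 2 lower (16.3% and 12.0% of all genes). The joint test of the age terms called the same 4 members, among 20.6% of all genes. Plin3 ran from 12.6 to 25.3 CPM (median 16.5) at 3 months and from 16.8 to 43.6 CPM (median 19.9) at 28 months, a log2 fold change of 0.32 ± 0.08 (adjusted p = 0.00089; edgeR). Pnpla2 ran from 15.3 to 23.7 CPM (median 18.0) and from 16.2 to 34.1 CPM (median 22.1), a change of 0.34 ± 0.08 (adjusted p = 0.00048). Both were higher in nearly all old brains: 18 of 18 for Plin3 and 17 of 18 for Pnpla2 lay above the 3-month median. Plin2 ran from 4.21 to 6.18 CPM (median 5.37) and from 3.28 to 5.47 CPM (median 4.68), a change of -0.22 ± 0.06 (adjusted p = 0.0063). Cideb ran from 1.45 to 3.44 CPM (median 2.60) and from 0.74 to 3.22 CPM (median 1.89), a change of -0.35 ± 0.11 (adjusted p = 0.0095), with 15 of 18 brains below the 3-month median. Nop9 had -0.06 ± 0.05 (adjusted p = 0.41; edgeR) in that comparison and a 3-month median of 10.7 CPM, above that of Cideb. Since the strand setting of the counting is not given, the brain level and call of Cideb are uncertain. Of 8 microglia markers 7 were higher and 0 lower at 28 than at 3 months, with summed medians of 243 and 283 CPM (range 225 to 276 and 237 to 439), and of 6 tested macrophage markers 5 were higher and 0 lower, with 41.8 and 67.4 CPM over all 9 (range 30.7 to 55.8 and 53.7 to 119). Astrocyte markers were 2 higher and 2 lower of 5, and of 5 neuron and 5 oligodendrocyte markers 0 were called (edgeR). The part of these cell types in the brain values was not tested.

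Brain replicate 15 of 28 months stood apart, with the highest Plin3 (43.6 CPM), Cidea (19.8 CPM), G0s2 (11.8 CPM), Pnpla2 (34.1 CPM), Plin5 (1.61 CPM) and Cideb (3.22 CPM) of its age, the lowest Pnpla3 (0.92 CPM) and the fewest counts of any brain library. The 4 calls were kept without it. In the other brain comparisons 0 members were called by edgeR, among 0.315% of all genes at 9, 0.871% at 15 and 10.1% at 24 against 3 months, 0% at 15 against 9, 0.732% at 24 against 15 and 1.09% at 28 against 24 months. At an unadjusted p under 0.05 there was 1 of 8 (Plin3) at 24 against 3 months, beside 4359 of all 18711 genes, and 4 of 8 (Plin2, Plin3, Cideb and Pnpla2) at 28 against 24 months, beside 2326, and 0 elsewhere. DESeq2 called 2 at 28 against 24 months and voom 2 there and 1 at 24 against 3 months, and both called 0 elsewhere. The share of all genes called by DESeq2 and voom is not given here.

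The changes from 3 to 28 months were then compared between the tissues in 1 fit over 14035 genes kept in both, in which 49.2% of all genes differed. Of the 8 members tested there 5 differed, as liver minus brain log2 fold change: Plin2 by -1.09 ± 0.14 (adjusted p = 3.5e-11), Plin3 by -0.43 ± 0.10 (adjusted p = 0.00029), Plin5 by -0.52 ± 0.21 (adjusted p = 0.028), Cidea by 2.56 ± 0.71 (adjusted p = 0.0015) and G0s2 by -2.35 ± 0.31 (adjusted p = 1.6e-10; edgeR). Within single preps G0s2 was called in each. Plin2 and Plin3 were called in preps 1 and 3 and not in prep 2 (-0.67, adjusted p = 0.11, and -0.17, adjusted p = 0.61), and Plin5 in none (-0.80, -0.08 and -0.74, adjusted p = 0.067, 0.93 and 0.11). Plin2 was called lower in both tissues, and Plin3 was called higher in the brain alone. With the mouse as a block, since brain and liver come from the same animals, Cidea was at 0.50 ± 0.84 and was not called (adjusted p = 0.65), and the other 4 were called. For Cideb (-0.01 ± 0.13), Pnpla2 (-0.09 ± 0.12) and Pnpla3 (0.33 ± 0.38) no difference was called. For Pnpla3 the preps gave -1.22, -0.15 and 2.21, and the value in prep 3 alone was called (adjusted p = 0.0087).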

How the data were processed

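Polyadenylated RNA from 83 livers and 82 brains was sequenced, per the labels' protocols with a stranded TruSeq kit. The authors deposited 1 table of raw whole-number counts per tissue. Per the submitters' processing notes the tools were cutadapt 2.8, HISAT2 2.1.0, SAMtools 1.9 and featureCounts of Subread 2.0.1, with GRCm38.p6 and mm10 named as builds. The strand setting, the annotation release and the handling of shared reads are not given in the sources used here. Symbols matched 55144 of 55471 identifiers, all columns were used, and a library with 3 counts or fewer for a gene was taken to be at the floor, which covers counting error only.

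Each tissue was fitted with edgeR 4.0.16 in R 4.3.3 (filterByExpr by age, TMM, quasi-likelihood test, terms for age and prep, all libraries). P-values were adjusted by Benjamini-Hochberg over all tested genes and called under 0.05. SE was obtained as |log2 fold change|/√F. Levels are CPM of the TMM-scaled library. Correlations used log2 CPM with a prior count of 2 and 100000 permutations within age and prep. Alternatives were DESeq2 1.42.0, voom in limma 3.58.1, RLE factors, no filter, only the 2 ages, no prep term, each prep alone, a clock covariate, a replicate block and leaving out libraries. The clock score was the mean z-score of log2 CPM over 13 clock genes, with Arntl, Npas2, Clock and Cry1 reversed.

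The members, lists, tests and alternatives were chosen with earlier results of these data known, except that Nop9 was added once the annotation had been read. From each pathway list the 2 highest and 2 lowest called genes with at least 1 CPM on average were named, and from the clock, feeding and adipocyte lists without regard to the call; 1 gene that this rule names is not reported here. For likeness the 3 genes with the highest r were taken per member with at least 1 CPM on average, and the foremost are named. Replicate numbers shared between ages did not pair the mice, while brain and liver of 1 mouse came from the same animal, as the labels' age and number show (median correlation of their deviations 0.08 over 82 mice).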

Additional observations from a re-analysis of the deposited data

Results flagged for a closer look

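The change from 3 to 28 months differed between liver and brain for 5 members in the test of the difference itself (liver minus brain log2 fold change, edgeR, adjusted over 14035 genes). For Plin2 the difference was -1.09, with -1.34 in the liver and -0.22 in the brain, so the fall was larger in the liver. For G0s2 it was -2.35, from -2.33 in the liver and 0.09 in the brain, the latter not called. For Plin3 it was -0.43, since the liver had -0.15, not called, and the brain rose by 0.32.

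For Plin5 the difference was -0.52, from -0.83 in the liver and -0.25 in the brain, the latter not called, and its adjusted p went from 0.028 to 0.051 without brain replicate 15 of 28 months. For Cidea the difference was 2.56, from 2.38 in the liver and 0.04 in the brain. The Cidea value by prep was 0.11, 4.93 and -2.48, and 0.50 (adjusted p = 0.65) with the mouse as a block, so it rested on prep 2, which holds the liver at 12.4 CPM.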

How the results depend on the processing

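Single member values were compared for all tested members at 28 against 3 months, and elsewhere for the members called. Of these, 36 of 36 with DESeq2 and 34 of 36 with a replicate block kept their direction and their side of the threshold, as did 44 of 44 with RLE factors, which include the tissue difference. Each prep alone, with fewer libraries, gave fewer calls: 0, 0 and 0 members in preps 1, 2 and 3 at 9 against 3 months (1 over all preps) and at 15 against 3 months (3), 0 and 2 in preps 1 and 2 at 24 against 3 months (5), 3 in prep 2 at 28 against 3 months (6), 0, 1 and 2 at 24 against 15 months (6), and 0 and 1 in preps 2 and 3 at 28 against 24 months (4). In the brain at 28 against 3 months preps gave 2, 0 and 0 (4), and for the tissue difference preps 1, 2 and 3 gave 3, 2 and 4 (5), beside 3825, 891 and 4407 of 14035 genes (6899). The clock covariate left 1 member at 28 against 24 months. In the liver voom called 2 members at 15 (3 in the main result), 7 at 24 (5) and 5 at 28 (6) against 3 months and 6 at 28 against 24 months (4). In the brain, no filter and voom each called 1 at 24 against 3 months, and at 28 against 24 months voom and DESeq2 called 2 and the fit without replicate 15 of 28 months 1 (0 each in the main result). Apart from the tissue difference, the share of all genes called in these alternative fits is not given here. Changed counts of members therefore cannot be set against the tissue as a whole. Leaving out 1 library gave 1 to 2 members at 9 against 3 months. Of liver values not called, leaving out any of several single libraries gave a call for Cideb at 24 against 3 months (15 libraries), Plin3 at 28 against 3 months (7), Pnpla3 at 28 against 24 months (5) and G0s2 at 24 against 15 months (4), and 1 library did so for Cidea at 9 against 3 months and for Cidec and G0s2 at 28 against 24 months.

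Signs turned for values that were mostly not called. In the liver at 24 against 3 months Plin3 was -0.030 in prep 3. At 28 against 3 months Cidea was -0.21 and -1.97 in preps 1 and 3 and -0.34 with voom, Cidec 0.051 in prep 2, Pnpla2 -0.17 with the clock covariate and -0.041 in prep 2, and Pnpla3 -1.04 and -0.24 in preps 1 and 2, -0.15 with voom and -0.0093 without replicate 3 of 28 months (-0.0093 to 0.41 over the fits that left out 1 library). Pnpla2 at 28 against 24 months was -0.0045 with the clock covariate. In the brain at 28 against 3 months Cidea was -0.32, -0.10 and -0.059 in prep 1, prep 2 and with voom, G0s2 -0.15 and Pnpla3 0.19 in prep 1. Without replicate 15 of 28 months they were -0.11, -0.038 and 0.024, and over the fits that left out 1 library -0.11 to 0.085, -0.038 to 0.14 and -0.070 to 0.024. For the tissue difference Cidea was -2.48 in prep 3, Cideb 0.12 and 0.084 in preps 1 and 2, 0.021 without that brain and 0.0096 with the mouse block, Pnpla2 0.11 in prep 1, and Pnpla3 -1.22 and -0.15 in preps 1 and 2 (2.21, called, in prep 3). The cause was not tested.

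With the replicate number as a block, members called were 1, 3, 6 and 6 in the liver at 9, 15, 24 and 28 against 3 months. In the brain 4 were called at 28 against 3 months. The share of all genes called with this block is not given here. In the liver at 28 against 3 months Cidea was 1.00 and lost its call (adjusted p = 0.25), and Plin3 gained one (-0.17, adjusted p = 0.031). Same-numbered livers of 2 ages had a median correlation of 0.0056 over 161 pairs (range -0.58 to 0.32). Brains had 0.0043 over 157 (range -0.30 to 0.46). Brain and liver of 1 mouse had a median of only 0.08, so this check has little power. That the ages hold different animals follows from the design. With the mouse as a block the tissue difference was called for 4 members. In 11 of the 16 livers of 3 months and 14 of the 18 of 28 months Cidea was at the floor, so depth limits its values.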
